A study of Rattus norvegicus with 6 samples.

Results

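The genes described here are 7 that set how much sterol regulatory element-binding protein (SREBP) becomes active in the liver: *Srebf1* and *Srebf2*, which encode the SREBP transcription factors, *Scap*, their escort, *Insig1* and *Insig2*, their anchors, and *Mbtps1* and *Mbtps2*, the proteases that release them. They were taken by symbol from a table of 32930 genes. Each symbol had 1 row, and all 7 were among the 18455 genes with enough counts to be tested. Of the libraries, 3 were made from liver of animals on a high-fat diet that received the vehicle, 0.5% CMC-Na (HFD group). The other 3 came from animals on the same diet that received the Huazhuo Tiaozhi granule, a herbal preparation (HTG group). The labels give an intervention of 12 weeks. All libraries share the diet, and a group on normal diet was not analysed here. The treatment label of the HTG libraries spells the preparation HCG, while their titles spell it HTG. The labels name the animals as rats and mRatBN7.2 as a build, the methods of the study name C57BL/6 J mice for the sequencing, and the rows of the table have Ensembl identifiers of mouse. The rows are read here as mouse genes, and the species of the animals stays unresolved. For rats, the methods give male Wistar animals and a high-fat diet with added cholesterol, egg yolk powder, pig fat and sodium cholate. They give 12 weeks on this diet, with vehicle or granule by gavage only in its later part. A fast came before the liver was taken. Whether these methods cover the sequenced animals depends on the species, and for mice the sources used here give no sex, age or fast.

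SREBPs are made as precursors in the membrane of the endoplasmic reticulum (ER), each bound to SCAP. When ER cholesterol is plentiful, SCAP and the INSIG proteins hold the complex in place. When it is scarce, SCAP enters transport vesicles to the Golgi, where the site-1 protease (*Mbtps1*) and then the site-2 protease (*Mbtps2*) cut the precursor and free the part that enters the nucleus. In liver the SREBP-1 proteins mainly drive fatty acid synthesis and SREBP-2 drives cholesterol synthesis and uptake. *Insig1* and *Srebf2* are themselves SREBP targets. Liver *Insig2* is known to rise in fasting, and *Srebf1* is known to rise in response to insulin and to liver X receptors. An mRNA level says nothing of how much precursor was cut.

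Estimated counts summed to between 50648778 and 90563477 per library. Low counts came in steps, with the value 4 occurring 6450 times against 2549 times for 3 and 1757 times for 5, so that a fragment was taken as worth about 4 counts and the libraries as 12662194 to 22640869 fragments deep. The level of a gene with no fragment is then at most 12 counts, or 0.123 to 0.256 CPM depending on the library, counting error only, and all members lay well above it. CPM here are counts divided by the normalised library total, in the usual unit of that name, and compare libraries for 1 gene. FPKM also divides by length, and compares genes.

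HFD libraries 2 and 3 stood apart from each other along this pathway, which touches most results below. All 20 cholesterol synthesis targets of SREBP and all 16 fatty acid synthesis targets had a higher CPM in HFD library 3 than in HFD library 2, with median log2 differences of 2.61 and 3.20. Over all genes tested, 49.0% were higher in library 3 and the median difference was -0.01. Of 11 genes that liver induces in fasting, 1 was higher in library 3, and the median difference was -1.16. The members split in the same comparison, given without a test: HFD library 3 exceeded HFD library 2 by 6.79-fold for *Insig1*, 4.51-fold for *Srebf1*, 2.20-fold for *Srebf2*, 1.66-fold for *Scap*, 1.25-fold for *Mbtps2* and 1.13-fold for *Mbtps1*, while *Insig2* was 1.48-fold higher in library 2.

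**Figure D1:**
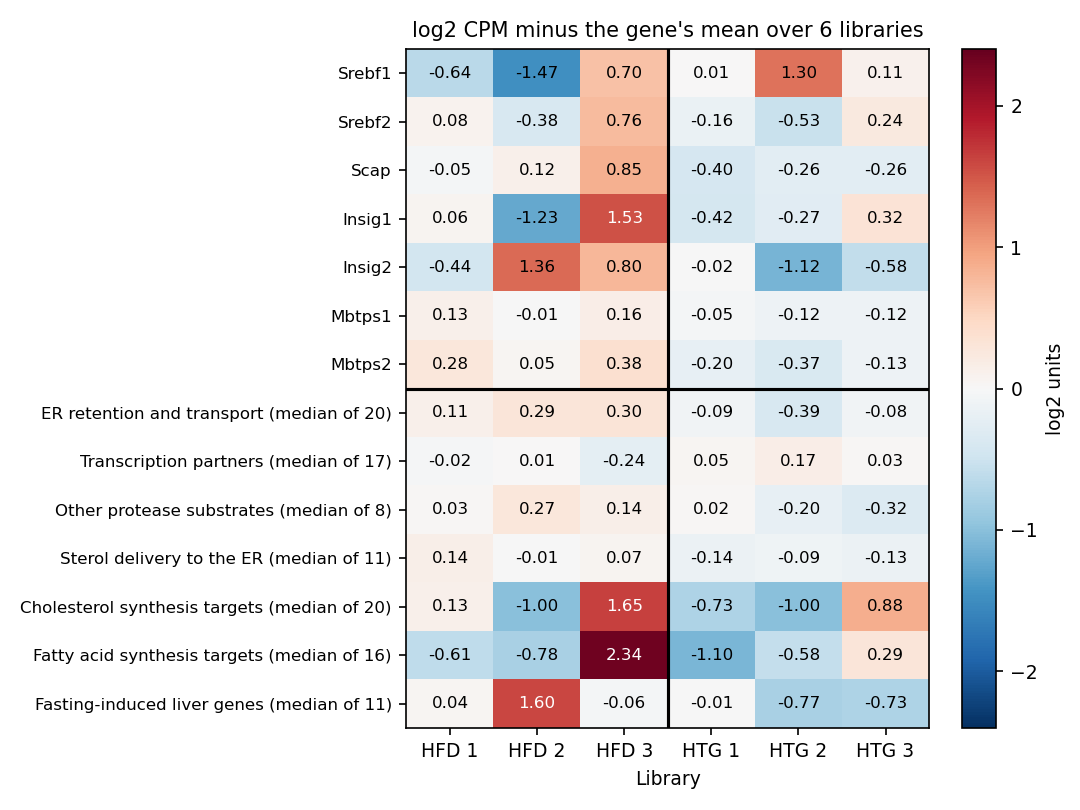
Log2 CPM of the 7 SREBP processing genes (upper rows) and the median over the genes of each list of other genes (lower rows), each gene minus its own mean over the 6 libraries. Columns are libraries, and red and blue mark values above and below the mean in log2 units. In HFD library 3 the fatty acid synthesis targets (2.34), the cholesterol synthesis targets (1.65) and *Insig1* (1.53) were high, and in HFD library 2 *Insig2* (1.36) and the fasting-induced genes (1.60) were high while *Srebf1* (-1.47) and *Insig1* (-1.23) were low. The cholesterol synthesis targets were also above their mean in HTG library 3 (0.88).

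The start regions of *Insig1* and *Srebf2* are shown because these genes are both parts of the sensor and SREBP targets. The sequences are rat RefSeq windows on build GRCr8, from 250 bases before to 50 bases after the annotated start, and therefore belong to the species the labels name, not to the mouse rows of the table. Capitals mark ATTGG, the reverse of the CCAAT box bound by the SREBP partner NF-Y, and ATCACCCCA. The *Insig1* window is chr4:8057720-8058019 on the minus strand and the *Srebf2* window is chr7:115543057-115543356 on the plus strand.
Insig1: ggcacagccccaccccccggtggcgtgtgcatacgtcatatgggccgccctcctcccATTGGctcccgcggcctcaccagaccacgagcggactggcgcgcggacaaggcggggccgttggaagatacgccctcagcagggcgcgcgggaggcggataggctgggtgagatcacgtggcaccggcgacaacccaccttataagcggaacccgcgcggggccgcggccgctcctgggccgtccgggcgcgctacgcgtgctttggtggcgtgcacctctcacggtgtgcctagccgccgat
Srebf2: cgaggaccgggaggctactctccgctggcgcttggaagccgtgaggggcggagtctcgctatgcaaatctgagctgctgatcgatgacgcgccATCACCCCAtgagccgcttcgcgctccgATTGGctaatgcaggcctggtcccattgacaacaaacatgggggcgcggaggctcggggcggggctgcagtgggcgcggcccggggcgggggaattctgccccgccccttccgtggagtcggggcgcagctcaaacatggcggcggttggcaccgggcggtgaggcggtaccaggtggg
CCAAT on either strand was present in the windows of 4 of the 7 members, *Srebf1*, *Srebf2*, *Insig1* and *Insig2*, in those of 12 of 15 cholesterol synthesis targets with a window, and in 37.5% of all 33469 windows. A form of the sterol regulatory element, ATCACCCCA followed by C, on either strand, was in 0.125% of windows and in none of the 7 members or the 15 targets. Without that last letter, a search made after the sequences had been seen and overlapping the longer one, ATCACCCCA was in 0.245% of windows, in none of the 15 targets and, among the members, in that of *Srebf2* alone. These are matches of letters within 300 bases and say nothing of binding.

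Per length, the anchors and *Srebf1* were the most abundant of the 7 mRNAs and the site-2 protease the least. Over the 6 libraries the median was 47.0 FPKM for *Insig1* (19.18 to 143.04), 40.4 FPKM for *Srebf1* (13.99 to 107.19) and 16.6 FPKM for *Insig2* (9.34 to 46.68). It was 9.89 FPKM for *Scap* (7.69 to 19.42), 6.16 FPKM for *Srebf2* (4.58 to 11.1), 4.52 FPKM for *Mbtps1* (3.95 to 5.47) and 0.585 FPKM for *Mbtps2* (0.52 to 0.87). Neighbours in this order overlapped in range, except the proteases, where *Mbtps1* lay 7.73-fold above *Mbtps2* by the medians. Within a library the order was firmer from *Insig2* down: *Insig2* exceeded *Scap*, *Scap* exceeded *Srebf2* and *Srebf2* exceeded *Mbtps1* in 6 of 6 libraries, against 5 of 6 for *Srebf1* over *Insig2* and 4 of 6 for *Insig1* over *Srebf1*. The order is a description, with no test.

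**Figure D2:**
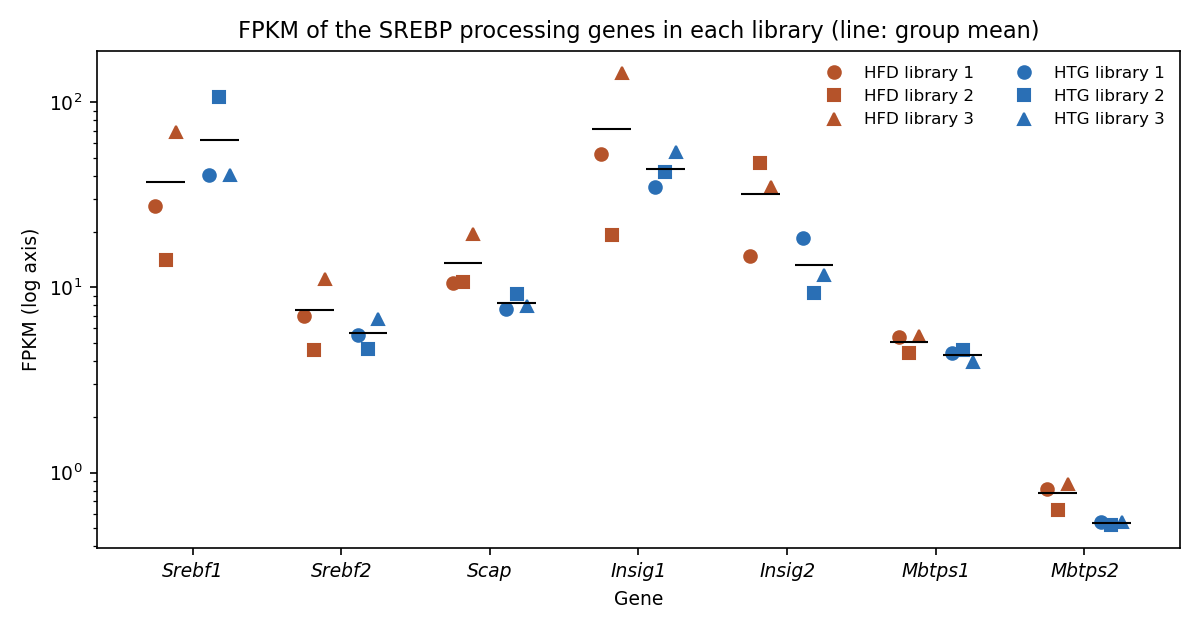
FPKM on a log axis for the 7 genes, 1 point per library (orange HFD, blue HTG) and a line at each group mean. The marker shape gives the library number within its group, which is not taken as a pairing of animals. *Insig1* ran from 19.18 to 143.04 FPKM within the HFD group alone, whereas *Mbtps2* stayed at 0.52 to 0.54 FPKM in the HTG group.

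No member passed an adjusted p of 0.05 between the groups by the quasi-likelihood test of edgeR, adjusted by Benjamini-Hochberg over all genes tested, a threshold that 0.0108% of all genes passed (0.00542% lower and 0.00542% higher). At an unadjusted p under 0.05, *Insig2*, *Scap* and *Mbtps2* were lower in the HTG group and no member was higher, against 24.7% of all genes in either direction, 12.4% lower and 12.3% higher. DESeq2 at an adjusted p of 0.05 called 1 member lower, *Insig2*, and none higher, against 7.10% and 5.91% of all genes. The fitted difference was below 0 for 6 of the 7 and above 0 for *Srebf1*, with a median of -0.48 on the log2 scale, beside 0.03 over all genes. In whole liver, fewer cells of a type and less RNA per cell cannot be told apart.

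**Figure D3:**
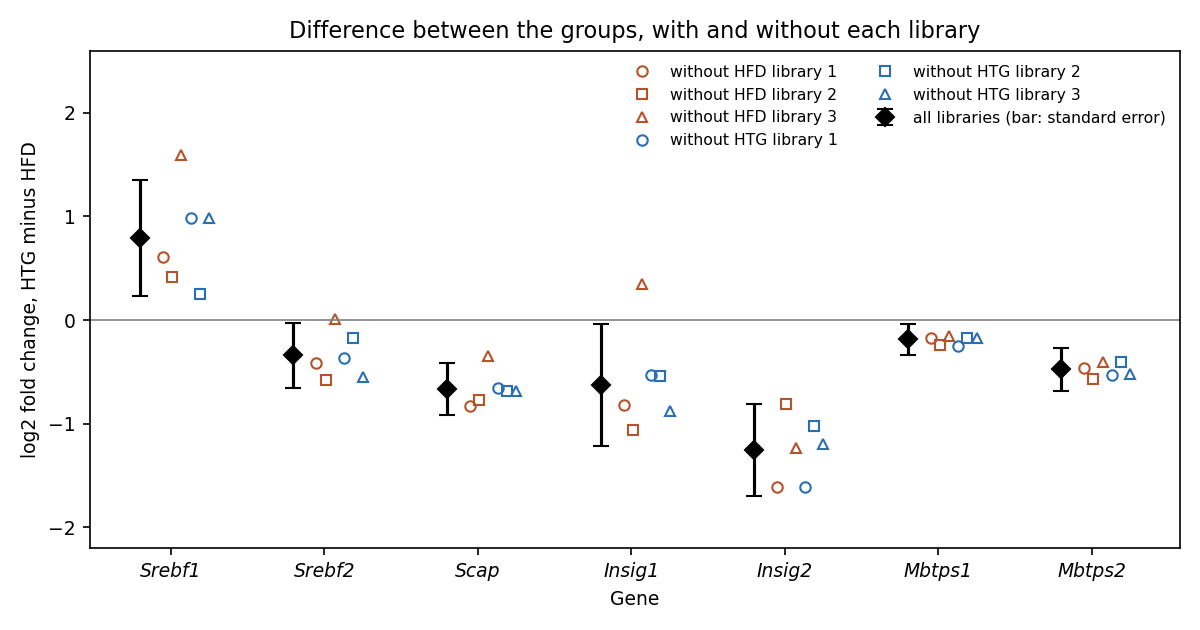
Log2 fold change of HTG minus HFD for each of the 7 genes from the edgeR fit (black, bar of 1 standard error) and from fits that leave out 1 library (coloured). *Insig2* lay lowest at -1.25 and stayed between -1.61 and -0.81, *Srebf1* lay at 0.79 and ranged from 0.25 to 1.60, and without HFD library 3 *Insig1* moved to 0.35 and *Srebf2* to 0.014.

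The anchors differed from each other in their pattern over the libraries. *Insig2* (ENSMUSG00000003721, minus strand of chr1:121232082-121260318, 13 transcripts) had 51.3, 179 and 121 CPM in HFD libraries 1, 2 and 3 and 68.9, 32.1 and 46.5 CPM in HTG libraries 1, 2 and 3. HFD libraries 2 and 3 were above all HTG libraries, while HFD library 1 lay within the HTG range. The group means were 117 ± 64.2 and 49.2 ± 18.5 CPM (SD, n = 3), a log2 fold change of -1.25 (SE 0.45), or 2.39-fold lower, with an unadjusted p of 0.0221 and an adjusted p of 0.135 in edgeR's quasi-likelihood test. Without HFD library 2, in which the fasting-induced genes were also highest, the edgeR value was -0.81 (unadjusted p = 0.0917), and the p was also above 0.05 without HTG library 2 (-1.02, unadjusted p = 0.0759) or 3 (-1.20, unadjusted p = 0.0597). A part of feeding state in this difference was not tested.

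*Insig1* (ENSMUSG00000045294, plus strand of chr5:28276361-28283660, 2 transcripts), the anchor that SREBP itself induces, had 161, 65.6 and 445 CPM in the HFD libraries and 116, 128 and 192 CPM in the HTG libraries. The HFD values enclosed all HTG values. The HFD group spanned 6.79-fold and the HTG group 1.67-fold, and 94.0% of all genes had a smaller SD of log2 CPM than *Insig1* (1.38) in the HFD group, against 59.5% in the HTG group (0.39). The means were 224 ± 198 and 145 ± 41.3 CPM (SD, n = 3), and edgeR's log2 fold change of -0.63 (SE 0.59) had an adjusted p of 0.543. Its sign rested on HFD library 3: without it the value was 0.35 (unadjusted p = 0.415 in edgeR), and without HFD library 2 it was -1.07 (unadjusted p = 0.0395).

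The ratio of the anchors shows the same libraries without any scaling between them. *Insig2* FPKM divided by *Insig1* FPKM was 0.283, 2.43 and 0.243 in the HFD group and 0.531, 0.223 and 0.215 in the HTG group. Only in HFD library 2 did *Insig2* exceed *Insig1*. The log2 ratios averaged -0.86 ± 1.86 and -1.76 ± 0.74 (SD, n = 3), a difference of -0.90 with a two-sided exact permutation p of 0.5, where 3 against 3 libraries allow no p below 0.1. Without HFD library 2 the difference was 0.17.

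*Scap* (ENSMUSG00000032485, plus strand of chr9:110162356-110207844, 9 transcripts), the sterol-sensing escort, had 78.4, 87.9 and 146 CPM in the HFD libraries and 61.4, 67.9 and 67.6 CPM in the HTG libraries. Every HTG library was below every HFD library, and the HTG libraries lay close together, with an SD of log2 CPM of 0.08 that was above that of 6.59% of genes. The means of 104 ± 36.4 and 65.6 ± 3.65 CPM (SD, n = 3) gave a log2 fold change of -0.66 (SE 0.25), or 1.58-fold lower, with an unadjusted p of 0.0277 and an adjusted p of 0.149 in edgeR. Without HFD library 3 the value was -0.35 (unadjusted p = 0.0904), and the p was also above 0.05 without HTG library 1 (-0.66, unadjusted p = 0.0604), 2 (-0.69, unadjusted p = 0.0545) or 3 (-0.68, unadjusted p = 0.0623).

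The proteases varied least of the 7 genes within the HFD group, and *Mbtps1* least in both groups. *Mbtps1* (ENSMUSG00000031835, minus strand of chr8:120234895-120285474, 8 transcripts), the site-1 protease, had 56.8, 51.4 and 58.0 CPM in the HFD libraries and 50.3, 47.9 and 47.9 CPM in the HTG libraries. Its SD of log2 CPM was 0.09 and 0.04, above that of 6.98% and 1.75% of genes. The CPM ranges did not overlap, yet the FPKM ranges of 4.4 to 5.47 and 3.95 to 4.59 did, and edgeR's log2 fold change was -0.19 (SE 0.15, adjusted p = 0.477).

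*Mbtps2* (ENSMUSG00000046873, minus strand of chrX:156318367-156381711, 7 transcripts), the site-2 protease, was the least abundant member, with 8.27, 7.08 and 8.85 CPM in the HFD libraries and 5.92, 5.26 and 6.23 CPM in the HTG libraries. The ranges did not overlap in CPM or in FPKM. Means of 8.07 ± 0.905 and 5.80 ± 0.498 CPM (SD, n = 3) gave a log2 fold change of -0.48 (SE 0.21), or 1.39-fold lower, with an unadjusted p of 0.0478 and an adjusted p of 0.197 in edgeR. The p sat at the threshold and was under 0.05 in 4 of 15 alternative fits, with an edgeR unadjusted p of 0.0629 to 0.128 without HFD library 1 or 3 or without any 1 HTG library. *Yy2*, a gene on the same strand within the *Mbtps2* interval, had 13 to 126 counts per library, up to 26.4% of the *Mbtps2* count, and how the authors divided such fragments is not given in the sources used here. With *Mbtps1* and *Scap* included, 3 of the 7 members had HTG libraries all below the HFD libraries in CPM and none had them all above, against 15.5% and 16.5% of all genes.

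Of the transcription factors, *Srebf1* varied far more than *Srebf2*. *Srebf1* (ENSMUSG00000020538, minus strand of chr11:60089915-60113407, 11 transcripts) had 155, 87.3 and 393 CPM in the HFD libraries and 244, 597 and 261 CPM in the HTG libraries. HTG library 2 was highest of all, HFD libraries 1 and 2 were lowest, and HFD library 3 lay inside the HTG range. Means of 212 ± 161 and 368 ± 199 CPM (SD, n = 3) gave a log2 fold change of 0.79 (SE 0.56, adjusted p = 0.417 in edgeR). It was 1.60 without HFD library 3 (unadjusted p = 0.0121) and 0.25 without HTG library 2.

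*Srebf2* (ENSMUSG00000022463, plus strand of chr15:82031382-82089580, 6 transcripts) had 50.1, 36.5 and 80.3 CPM in the HFD libraries and 42.6, 33.0 and 56.1 CPM in the HTG libraries. The groups overlapped, with HFD library 3 highest and HTG library 2 lowest. The means were 55.6 ± 22.4 and 43.9 ± 11.6 CPM (SD, n = 3), and edgeR's log2 fold change of -0.34 (SE 0.31, adjusted p = 0.529) was 0.014 without HFD library 3 and -0.58 without HFD library 2. *Srebf1* FPKM divided by *Srebf2* FPKM was 3.95, 3.05 and 6.25 in the HFD group and 7.31, 23.1 and 5.93 in the HTG group. HTG library 2 stood highest. The log2 ratios averaged 2.08 ± 0.52 and 3.32 ± 1.06 (SD, n = 3), a difference of 1.24 with a two-sided exact permutation p of 0.2. Without HTG library 2 the difference was 0.64 (exact permutation p = 0.4).

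The row for *Srebf1* pools the transcripts for SREBP-1a and SREBP-1c, which start from different promoters. Count divided by FPKM, relative to the median of that ratio in the same library, was fixed for each member, moving by at most 0.026 on the log2 scale between libraries. FPKM therefore used 1 length per gene in every library, and the table holds no measure of which transcript was present. Inside the *Srebf1* interval and on its strand, the row *Mir6921* had 29, 20 and 60 counts in HFD libraries 1, 2 and 3 and 107, 641 and 61 counts in HTG libraries 1, 2 and 3, highest where *Srebf1* was highest. A poly(A) library does not capture mature miRNA, and reads of the host gene cannot be told apart from those of the miRNA row. *Rai1*, on the opposite strand at the same place, had up to 14.2% of the *Srebf1* count.

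Over the 6 libraries the members did not share 1 profile. As root mean square distance between log2 CPM values centred on each gene's mean, a description over 6 points, the proteases were the closest pair (0.165), followed by *Scap* and *Mbtps2* (0.258). *Srebf2* and *Insig1* were 0.493 apart. *Srebf1* and *Insig2* were the farthest pair (1.55), and the anchors *Insig1* and *Insig2* were 1.24 apart. This distance grows with how much a gene varies, so that it does not measure the shape of a profile alone. Among 8014 genes with a mean of at least 10 CPM, the profile nearest to *Insig2* was that of *Slc16a1* (0.136), a monocarboxylate transporter, followed by *Sdc1* (0.192), a heparan sulphate proteoglycan, and *St3gal5* (0.226), a ganglioside synthase, beside a median distance of 0.831. *Slc26a1* (0.0932), an anion exchanger, *Slc20a2* (0.0984), a phosphate transporter, and *Gcat* (0.101), an enzyme of threonine breakdown, were nearest to *Scap*, and *Dsg2* (0.0222), a desmosomal cadherin, *Tgfa* (0.0565), a growth factor, and *Hibch* (0.0569), an enzyme of valine breakdown, to *Mbtps2*. The median distance over the same genes was 0.485 for *Scap* and 0.366 for *Mbtps2*, beside 0.308 for *Mbtps1* and 0.914 for *Insig1*.

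Around the members stand 7 lists of other genes, with 103 genes tested. Those of the pathway are joined by 11 fasting-induced liver genes, which are not part of it and are counted in the totals here. None of the 103 genes passed an adjusted p of 0.05 in edgeR. At an unadjusted p under 0.05, 22 were lower and 7 higher in the HTG group, beside 12.4% and 12.3% of all genes tested. The counts at that threshold in each list below stand beside the same shares. The lists are described by counts and medians, beside the median of 0.03 and the 48.4% of genes fitted lower over all genes tested.

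Genes for ER retention, for the degradation of ER membrane proteins, and for COPII transport were fitted lower in 18 of 20 cases, with a median of -0.36, and 8 were lower and 1 higher at an unadjusted p under 0.05. *Paqr3*, a Golgi protein that tethers SCAP, had 2.06, 4.74 and 3.77 CPM in the HFD libraries and 1.01, 0.685 and 1.41 CPM in the HTG libraries, without overlap (log2 fold change -1.77, SE 0.42, edgeR adjusted p = 0.0638). *Marchf6*, a ubiquitin ligase of the ER, had 92.5, 124 and 80.8 CPM in the HFD group against 68.4, 41.6 and 48.7 CPM in the HTG group (-0.91, edgeR adjusted p = 0.082). The COPII coat gene *Sec23a* (-0.77, adjusted p = 0.0785) and *Vcp* (-0.82, adjusted p = 0.0823), the ATPase that draws proteins out of the ER membrane, lay beside them in the edgeR fit. The list median stayed between -0.49 and -0.27 when any 1 library was left out.

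Genes that act with SREBPs in the nucleus or on *Srebf1* went both ways, with a median of 0.21 and 2 lower and 4 higher of 17 at an unadjusted p under 0.05. The median was 0.09 without HFD library 3, 0.13 without HTG library 2 and 0.36 without HFD library 2. *Lpin1*, a phosphatidate phosphatase that also restrains nuclear SREBP, had 109, 115 and 161 CPM in the HFD libraries and 26.0, 42.1 and 47.8 CPM in the HTG libraries. It had the smallest p of all list genes, with a log2 fold change of -1.73 (SE 0.27, edgeR adjusted p = 0.0538). *Mlxipl*, which encodes the carbohydrate response factor ChREBP, had 325, 287 and 461 CPM against 604, 1075 and 939 CPM, without overlap (1.29, SE 0.29, edgeR adjusted p = 0.0613). *Rxra*, the partner of liver X receptors, was at -0.73 and *Nfyb*, a subunit of NF-Y, at 0.65 on the same scale, with edgeR adjusted p of 0.0785 and 0.104.

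The proteases also cut other membrane proteins, of which 8 were tested, with a median of -0.26 and 1 at an unadjusted p under 0.05. All but *Gnptab*, the precursor of a Golgi enzyme, encode transcription factors. The median was -0.17 without HFD library 3 and -0.48 without HTG library 1. The gene past that threshold was *Atf6*, a sensor of unfolded protein, with 58.7, 90.6 and 57.5 CPM in the HFD libraries and 46.7, 30.3 and 33.6 CPM in the HTG libraries (-0.90, SE 0.25, edgeR adjusted p = 0.0837). In the same edgeR fit *Creb3* lay at -0.46 (unadjusted p = 0.0914), *Atf6b* at -0.28 (unadjusted p = 0.182) and *Creb3l3* at -0.41 (unadjusted p = 0.223). *Creb3l3*, a liver factor of fasting, was highest in HFD library 2 at 416 CPM, beside 182 to 246 CPM in the other libraries.

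Of 11 genes that bring sterol to the ER or store it, 3 were lower and 2 higher at an unadjusted p under 0.05, with a median of -0.29. *Lipa*, the lysosomal lipase that frees cholesterol from esters, had 115, 175 and 174 CPM in the HFD libraries and 81.5, 41.2 and 36.2 CPM in the HTG libraries (-1.54, SE 0.34, edgeR adjusted p = 0.0606). *Npc2*, which hands on that cholesterol in the lysosome, had 104, 102 and 93.9 CPM against 68.2, 34.6 and 45.2 CPM (-1.02, SE 0.25, edgeR adjusted p = 0.0673). *Soat1*, which re-esterifies cholesterol, lay at -0.86 and *Gramd1a*, which carries plasma membrane cholesterol to the ER, at 0.61, with edgeR adjusted p of 0.0644 and 0.109. *Soat2*, the paralog of *Soat1*, went the other way at 0.50 (edgeR adjusted p = 0.23). The groups did not overlap for *Lipa* and *Npc2*, while the list median moved to -0.06 without HFD library 3 and to -0.15 without HTG library 1.

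All 20 cholesterol synthesis targets were fitted lower in the HTG group, with a median of -0.61, and 2 had an unadjusted p under 0.05. *Hsd17b7*, an enzyme of the late sterol steps, had 23.0, 46.9 and 77.3 CPM in the HFD libraries and 16.9, 11.7 and 23.5 CPM in the HTG libraries, overlapping between HFD library 1 and HTG library 3 (-1.50, SE 0.43, edgeR adjusted p = 0.0876). *Pmvk*, of the mevalonate steps, lay at -1.32 (edgeR adjusted p = 0.26). The list rested on HFD library 3: without it 7 of 20 genes were fitted lower and the median was 0.08, whereas without HTG library 3 the median was -1.77 and 13 genes were lower at an unadjusted p under 0.05, and without HFD library 2 these were -1.03 and 7. Without HTG library 2 the median was -0.34.

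Of 16 fatty acid synthesis targets 15 were fitted lower, with a median of -1.52, and 3 had an unadjusted p under 0.05. *Me1*, malic enzyme, had 45.0, 123 and 222 CPM in the HFD libraries and 33.2, 23.0 and 31.1 CPM in the HTG libraries, without overlap (-2.16, SE 0.50, edgeR adjusted p = 0.0616). *Fads2*, the delta-6 desaturase, had 392, 609 and 1318 CPM against 313, 212 and 283 CPM (-1.52, SE 0.43, edgeR adjusted p = 0.0849). *Acly*, ATP citrate lyase, had 60.9, 61.9 and 1023 CPM against 42.2, 39.8 and 91.7 CPM, so that HFD library 3 alone set its value of -2.72 (SE 1.06, edgeR adjusted p = 0.162), and *Elovl5*, an elongase, lay at -1.05 (unadjusted p = 0.0509 in edgeR). Without HFD library 3, 5 of 16 genes were fitted lower, the median was 0.34, and 2 genes were lower and 4 higher at an unadjusted p under 0.05. The fitted value of *Srebf1* and the median of its fatty acid targets therefore had opposite signs with all libraries, and the same sign without HFD library 3. Single targets went both ways in each case.

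**Figure D4:**
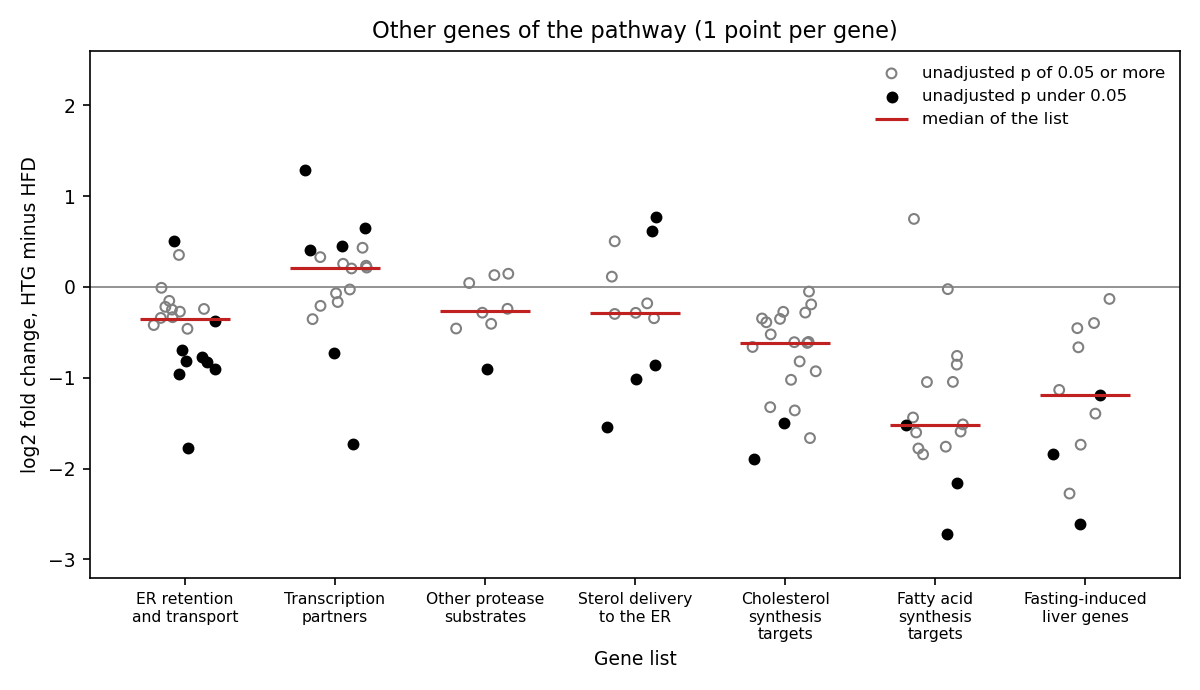
Log2 fold change of HTG minus HFD in edgeR for each gene of the 7 lists, filled where the unadjusted p was under 0.05, with a red line at the median of the list. No gene had an adjusted p under 0.05, and the medians ran from -1.52 for fatty acid synthesis targets to 0.21 for transcription partners.

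A list of 11 genes that liver is known to induce in fasting was included because *Insig2* and *Srebf1* are known to respond to feeding. The feeding state of each animal was not measured by it. All 11 were fitted lower in the HTG group, with a median of -1.19, and 3 had an unadjusted p under 0.05. *Cpt1a*, which admits fatty acids to mitochondria, had 347, 612 and 366 CPM in the HFD libraries and 237, 192 and 151 CPM in the HTG libraries, without overlap (-1.19, SE 0.29, edgeR adjusted p = 0.0654). *Pdk4*, which shuts off pyruvate oxidation, had 2.63, 25.7 and 6.15 CPM against 3.20, 0.481 and 1.99 CPM, and *G6pc*, the last step of glucose release, 70.8, 354 and 234 CPM against 119, 18.9 and 45.9 CPM. *Fgf21*, a fasting hormone, had 15.9 CPM in HFD library 2 and 0.626 to 1.72 CPM elsewhere. HFD library 2 was highest for each of these 4 genes and for *Insig2*, and HTG library 2 was lowest for *Pdk4*, *G6pc* and *Insig2*. Without HFD library 2 the median was -0.43 and 8 of 11 genes were fitted lower, and without HTG library 1 the median was -1.88.

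Other measures also moved with the groups. Mitochondrial rows took 4.97% to 6.45% of counts in the HFD libraries and 9.31% to 15.2% in the HTG libraries. The summed CPM of 6 hepatocyte markers was 67411 to 86422 in the HFD and 61127 to 62979 in the HTG libraries, without overlap. The sum was high in all 6 libraries, as the liver label has it. Most of that sum was *Alb*, with means of 66149 and 54379 CPM and an unadjusted edgeR p of 0.33. *Cps1* (-1.62) and *Tat* (-1.32) were lower at an unadjusted p under 0.05 in edgeR, while *Ttr* (0.06), *Asgr1* (-0.24) and *Hnf4a* (-0.71) overlapped between groups. All 6 Kupffer cell markers were fitted lower in the HTG group, with a median of -0.44, and *Adgre1* and *Csf1r* did not overlap between groups. *Adgre1* had 22.1 CPM on average in the HFD and 7.64 CPM in the HTG group (-1.53, SE 0.26, edgeR adjusted p = 0.0538), while the summed CPM of the list, 284 to 620 and 270 to 459, overlapped. The sums of stellate, endothelial, bile duct, leukocyte and red cell markers overlapped too. The stellate and bile duct lists each had 1 marker lower and 1 higher at an unadjusted p under 0.05, the red cell list had 1 lower, and the other two had none. The 3 adipocyte markers listed were at or under the limit of 12 counts in each library, as were 3 of 4 exocrine pancreas markers. Leaving out the mitochondrial rows left the same 3 members with an unadjusted p under 0.05. The part of hepatocyte and Kupffer cell content and of feeding state in the members' differences was not tested.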

How the data were processed

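Liver RNA of 3 HFD and 3 HTG animals was grouped by the sample titles, and no column of values was unmapped. For every gene, the authors deposited an estimated count in each library, given as a whole number with no scaling between libraries. Beside it the authors deposited an FPKM, scaled to length and library. HISAT2, StringTie and SAMtools are named in the submitters' processing notes without versions. Filters, and whether counting used strand, are not given in the sources used here, so counts of overlapping and antisense genes are uncertain. Coordinates are those of the deposited table, whose build is not given there. The notes name the rat build mRatBN7.2. Yet *Insig1* and *Srebf2* are on chr5 and chr15 in the deposited table, and on chr4 and chr7 in the rat windows. The coordinates are therefore not those of a rat build. The methods describe paired-end libraries of poly(A) RNA.

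Estimated counts were scaled by TMM and tested with edgeR 4.0.16 (glmQLFit, glmQLFTest, filterByExpr, group as the only term) in R 4.3.3, with Benjamini-Hochberg adjustment over 18455 genes. The SE is the log2 fold change divided by the root of the F statistic. Ratios were compared by two-sided exact permutation tests in scipy 1.17.1, which with 3 against 3 libraries give no p below 0.1. As nothing in the labels says how animals were housed or pooled, p-values measure the spread between these libraries. All members were named, with up to 4 genes per list by smallest p, and for members with an unadjusted p under 0.05 the 3 nearest profiles among genes with a mean of at least 10 CPM. *Gnptab* and *Soat2* were named outside this rule. The members and lists were chosen with earlier results of these data known. Scripts were tested on simulated counts.

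Alternatives were DESeq2 1.42.0, its size factors, upper-quartile scaling, genes unfiltered or with 10 counts or more throughout, mitochondrial rows left out, counts divided by 4, the replicate number as a block, limma 3.58.1 on log2(FPKM + 0.1) and log2(FPKM + 1) over genes whose FPKM averaged 1 or more, the former also without that filter, and each library left out in turn. The medians of lists without each library, and the values of HFD library 3 beside HFD library 2, were chosen after seeing the data. Promoter windows are from rat RefSeq (GRCr8), where all 7 members matched by symbol. Some items of the pathway are not reported here.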

Additional observations from a re-analysis of the deposited data

How the results depend on the processing

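No member passed an adjusted p of 0.05 in any alternative but DESeq2, which called 1, *Insig2* (log2 fold change -1.28, adjusted p = 0.0246). Signs held for *Srebf1*, *Scap*, *Insig2* and *Mbtps1* in 17 of 17 alternative fits and for *Mbtps2* in the 15 that tested it. Without HFD library 3 the sign turned for *Srebf2* (0.014) and *Insig1* (0.35). Leaving out 1 library moved *Srebf1* between 0.25 and 1.60, *Srebf2* between -0.58 and 0.014, *Scap* between -0.83 and -0.35, *Insig1* between -1.07 and 0.35, *Insig2* between -1.61 and -0.81, *Mbtps1* between -0.25 and -0.16 and *Mbtps2* between -0.57 and -0.41. The count of members lower at an unadjusted p under 0.05, 3 with all libraries, was between 0 and 3, and that of members higher, 0 with all libraries, between 0 and 1. Genes of the 7 lists at that p, 22 lower and 7 higher, were between 20 and 33 lower and between 3 and 9 higher. The *Insig2* to *Insig1* log2 difference was between -1.49 and 0.17 and the *Srebf1* to *Srebf2* difference between 0.64 and 1.62. The list medians ranged from 0.09 to 0.36 for transcription partners, from -0.48 to -0.17 for other protease substrates, from -0.29 to -0.06 for sterol delivery, from -0.49 to -0.27 for ER retention and transport, from -1.77 to 0.08 for cholesterol synthesis targets, from -2.23 to 0.34 for fatty acid synthesis targets and from -1.88 to -0.43 for fasting-induced genes. The largest group difference in count over FPKM was 0.289 on the log2 scale when set against library total over summed FPKM instead of the library median. With the replicate number as a block, 1 member, *Scap* (-0.61, unadjusted p = 0.0375), was lower at an unadjusted edgeR p under 0.05, *Insig2* was at -1.17 (unadjusted p = 0.0741), and no gene of the table passed an adjusted p of 0.05, against 2 without it. Deviations from the group means of libraries with the same number correlated at -0.08, -0.07 and 0.10 across genes. Those of libraries with different numbers correlated at -0.12 to 0.18. With 3 libraries per group, these values cannot tell whether the numbers pair animals. Over all genes, calls at an adjusted p of 0.05 numbered 2401 in DESeq2, 878 in limma on log2(FPKM + 0.1), 884 on log2(FPKM + 1), 822 with counts divided by 4, 684 with at least 10 counts in every library, 162 without a filter and 653 without HTG library 1. The cause was not tested.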
